A study of Mus musculus with 16 samples.

Results

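The effect of the Srsf2 P95H mutation on gene expression was measured in haematopoietic stem and progenitor cells by setting all 8 libraries that carry it against all 8 that do not, over 22749 genes. The carriers were 4 mice of genotype Srsf2P95H/+ (named here Srsf2P95H) and 4 double mutants of genotype Asxl1Y588XTg;Srsf2P95H/+ (DM). The libraries with unmutated Srsf2 were 4 wild-type mice (WT) and 4 mice of genotype Asxl1Y588XTg (Asxl1Tg), which carry a transgene for a truncated form of the chromatin regulator Asxl1. The choice took every one of the 16 libraries of the series, and the Asxl1 transgene entered the model as a second factor, so that the Srsf2 effect was estimated within each Asxl1 background and averaged. All 16 were RNA of individual C57BL/6 mice, from bone-marrow cells that lack lineage antigens and carry c-Kit and Sca-1 (LSK cells), purified with beads. The labels name neither the promoter of the transgene nor any agent that switches on the Srsf2 allele, and give no sex, age or batch. For DM the design text speaks of 3 animals, but 4 are labelled and have columns, and none was dropped.

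Srsf2 encodes a serine- and arginine-rich (SR) protein that binds exonic RNA and recruits the spliceosome to nearby splice sites. It recognises short motifs with a CC or a GG pair, and changes at proline 95 are known from myelodysplastic syndromes and chronic myelomonocytic leukaemia to shift this preference from GG towards CC motifs. Counts of reads per gene record the abundance of a gene's RNA and not the choice of its exons. The mutated codon lies on the minus strand of chromosome 11 at positions 116852645 to 116852647 of GRCm38, within 1 exon. It is shown because it is the only sequence in which the compared libraries are known to differ by design. The codon for proline 95 is in capitals in the unmutated reference of chr11:116852615-116852677, written along the coding strand.
Srsf2 codon 95: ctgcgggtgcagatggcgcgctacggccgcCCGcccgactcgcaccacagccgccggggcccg

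The libraries expressed the markers of their gate. Kit, the receptor that defines it, lay between 699 and 1211 CPM (the TMM-scaled unit CPM, counts normalised to depth) over the 16 libraries, Cd34 between 738 and 1002 CPM, and Ly6a, the gene of Sca-1, between 23.2 and 54.3 CPM. None of the 3 passed the test. Cd3e of T cells was at 0.266 CPM or less in every library, and Ly6g of neutrophils had no count in 11 of 16. Depth over the pooled groups was greater with the mutation, at 92.2 to 127.6 M counts against 82.99 to 124 M (mean 109.7 ± 12.7 M in P95H libraries and 95.7 ± 13.2 M in the others, SD, n = 8 each, exact permutation test within backgrounds, two-sided p = 0.0482). The 4 DM libraries, at 113.8 to 127.6 M, lay above the 4 Asxl1Tg libraries, at 85.7 to 102 M. Those of Srsf2P95H, at 92.2 to 105 M, lay within the WT range of 82.99 to 124 M. Some libraries stood apart. The summed CPM of B lineage genes was 949 in DM 1, 1329 in WT 4 and 1285 in Asxl1Tg 3, and 166.6 to 362 in the other 13 libraries. That of eosinophil genes was 1669 in WT 4 and at most 504 elsewhere, and the immediate-early gene Fosb was at 1732 CPM in Srsf2P95H 2, the highest P95H library. In bulk RNA, fewer cells of a type and less RNA per cell cannot be told apart. Srsf2 itself was at 179.9 to 247 CPM (median 222) in P95H libraries and 172.7 to 294 CPM (median 231) in the others, with a log2 fold change of -0.09 (SE 0.10, edgeR adjusted p = 0.561). The ranges overlap, genes on the opposite strand overlap the locus, and a point mutation need not alter the level, so this value does not check the labels. Asxl1 was likewise not called (-0.03, adjusted p = 0.709).

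Across all genes, 2242 passed the test at an adjusted p under 0.05, which is 9.86% of those tested. Of these, 1368 (6.01%) rose and 874 (3.84%) fell with Srsf2 P95H, where fold changes are log2 values of P95H over unmutated Srsf2 from edgeR's quasi-likelihood test with Benjamini-Hochberg adjustment. The rises were small, with a median of 0.27, and the falls larger, with a median of -0.66. Among the 221 genes (0.971%) that also changed by at least 1 on the log2 scale, 58 rose and 163 fell. For 238 genes (1.05%) the 8 and 8 libraries did not overlap at all, 177 of them higher (0.778%) and 61 lower (0.268%), and all 238 were called. The split between rises and falls depends on the scaling. With library size only, which moved the median of all genes by -0.11, 407 rose and 1435 fell, so that 22.1% of calls were rises instead of 61.0%. With cyclic loess scaling 621 rose and 628 fell.

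**Figure D1:**
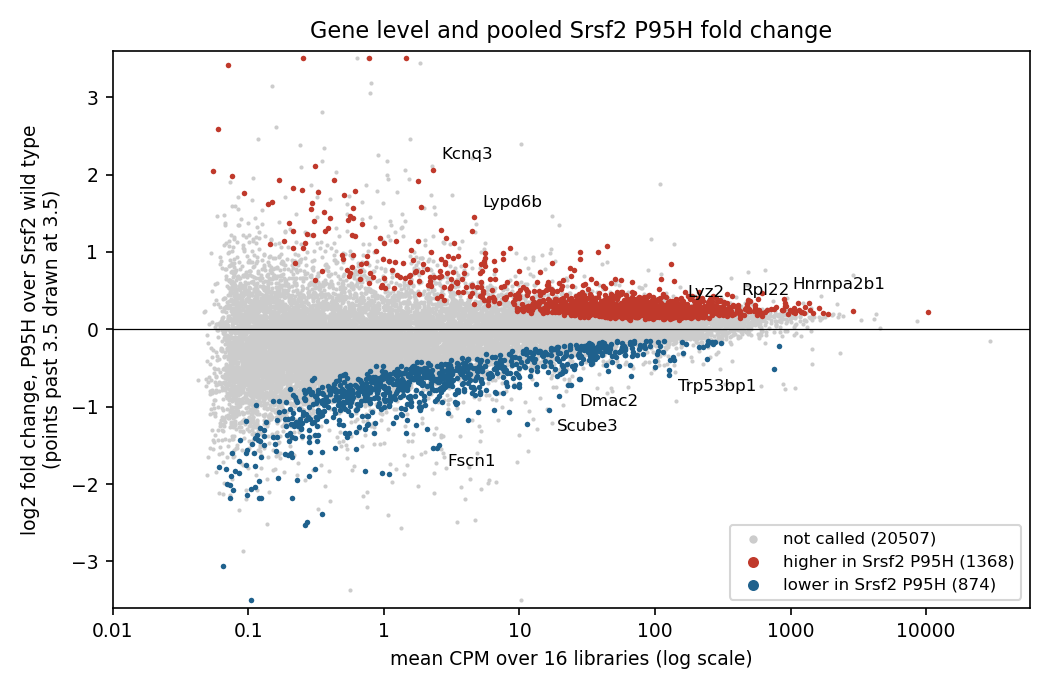
Each point is 1 of 22749 genes, with its mean CPM over 16 libraries on a log axis and its log2 fold change of P95H over unmutated Srsf2. Red points are the 1368 genes called higher, most of them above 10 CPM with small changes, and blue points are the 874 called lower, most of them at low levels.

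For the genes with the smallest p-values, the 8 and 8 libraries did not overlap. Dmac2, which encodes an assembly factor of respiratory complex I, was at 16.5 to 20.2 CPM (median 17.8) in P95H libraries and 25.6 to 31.8 CPM (median 29.98) in the others. The 2 ranges do not overlap, and the log2 fold change was -0.72 (SE 0.06, adjusted p = 1.16e-05). Galns, the lysosomal sulfatase of keratan sulfate, was at 11.3 to 16.04 CPM (median 14.4) in P95H libraries, against 21.7 to 29.5 CPM (median 25.8), again without overlap (-0.86, adjusted p = 0.000139). Trp53bp1 encodes 53BP1, a scaffold of double-strand break repair. It was at 92.3 to 123 CPM (median 104) with the mutation and 140 to 181 CPM (median 146) without it, and fell by 0.52 on the log2 scale (SE 0.06, adjusted p = 0.000512), the gene Tubgcp4 overlapping it on the opposite strand. Nup210, a membrane protein of the nuclear pore, was the most abundant of these genes. Its P95H libraries lay between 597 and 657 CPM (median 617), below the lowest of the others at 734 CPM (median 889), with a log2 fold change of -0.51. Rbks, which encodes ribokinase, was at 3.58 to 4.93 CPM (median 3.91) in P95H libraries and 5.85 to 8.39 CPM (median 7.12) in the others (-0.79, adjusted p = 0.000531).

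Higher by the same rule were Ggcx, Clec4e, Lypd6b and Eda2r, among others. Ggcx, the vitamin K-dependent gamma-carboxylase, was at 24.9 to 32.3 CPM (median 29.1) with P95H and 17.9 to 21.7 CPM (median 19.6) without it (0.56, SE 0.06, adjusted p = 0.000293). Clec4e encodes Mincle, a lectin receptor for microbial glycolipids, and lay between 22.1 and 30.4 CPM (median 25.1) in P95H libraries, above the 13.3 to 19.4 CPM (median 16.5) of the others (0.64, SE 0.07, adjusted p = 0.000396). For both genes the groups do not overlap. Lypd6b, a small protein of the Ly6 family, was at 3.97 to 9.60 CPM (median 6.45) with P95H, against 1.83 to 3.30 CPM (median 2.36), a log2 fold change of 1.45 (SE 0.17, adjusted p = 0.000399). The calls of Dmac2, Galns, Trp53bp1, Nup210, Rbks, Ggcx, Clec4e, Lypd6b and Eda2r were kept in all 32 alternative runs.

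**Figure D2:**
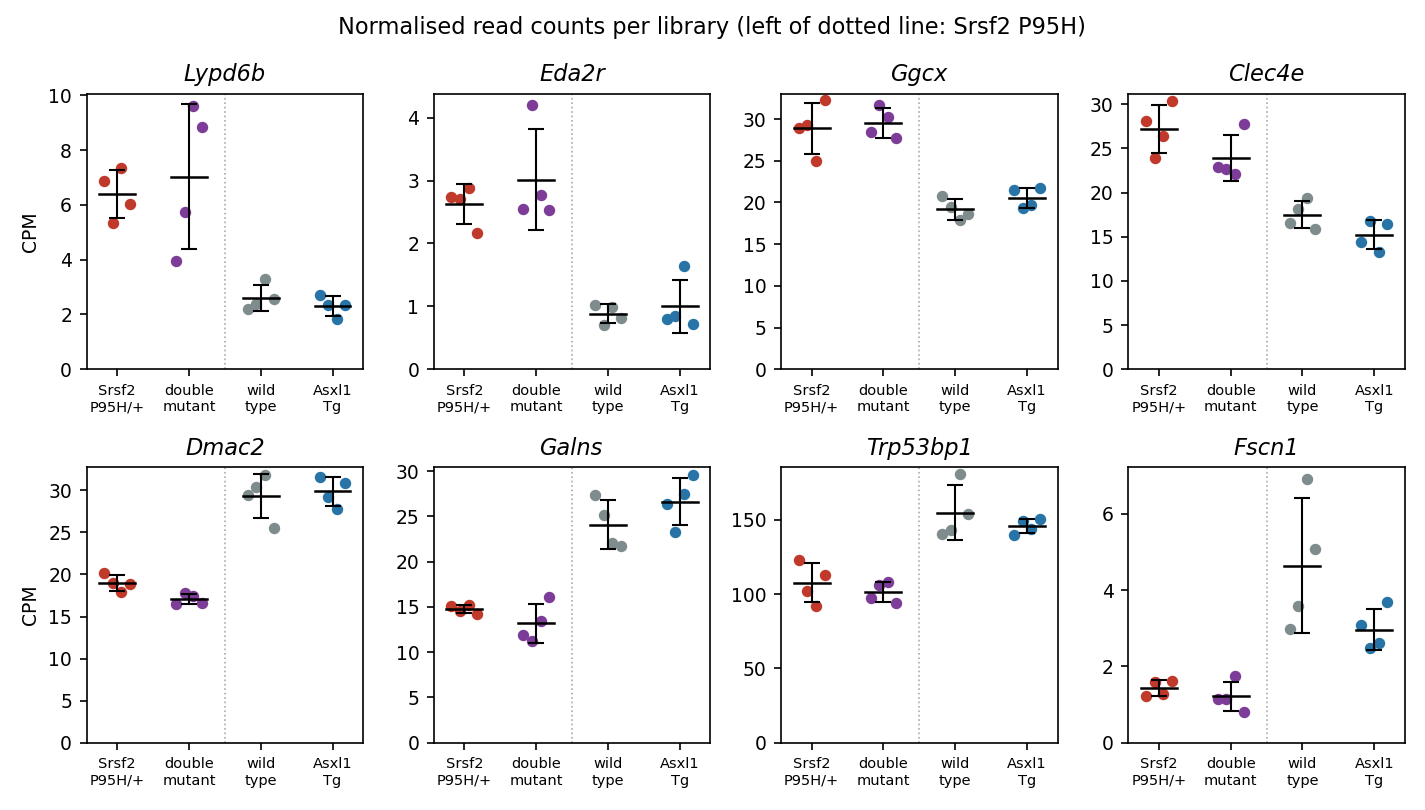
CPM of 8 genes, with 1 point per library, the 4 groups along each x axis, and a bar at the mean with its SD (n = 4). Srsf2P95H and DM, left of the dotted line, do not overlap with WT and Asxl1Tg for any of the 8, with Lypd6b, Eda2r, Ggcx and Clec4e higher and Dmac2, Galns, Trp53bp1 and Fscn1 lower.

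Changes were ranked by size among called, annotated genes of at least 2 CPM with 1 sign in both backgrounds. The leading rise was that of Kcnq3, a voltage-gated potassium channel subunit. It was at 1.44 to 5.41 CPM (median 4.07) in P95H libraries and 0.1097 to 2.11 CPM (median 0.830) in the others, overlapping through Srsf2P95H 1 and WT 1 (2.07, SE 0.43, adjusted p = 0.0110). Other rises of about 1 or more were in Bpifb5 of the BPI-fold family (1.28), the thymic protease gene Prss16 (1.17), the cytoskeletal adaptor gene Sorbs2 (1.12) and Aldh1a1, a retinaldehyde dehydrogenase of stem cells (1.08). The lectin gene Clec10a (1.05), the tight-junction gene Tjp1 (1.002), the D-glutamate cyclase gene Dglucy (0.997), Il22ra2, which encodes a soluble antagonist of interleukin 22 (0.996), and the testis proteasome subunit gene Psma8 (0.98) followed. Tjp1 was at 29.7 to 83.1 CPM (median 44.6) with P95H, against 15.6 to 22.7 CPM in 7 of the others and 58.9 CPM in WT 1. Plscr2 (1.28), of the phospholipid scramblase family, is less secure, its call being lost in 15 of 32 alternative runs, with adjusted p up to 0.0729. Aldh1a1 was lost without Srsf2P95H 3 or DM 1 (adjusted p up to 0.0527), and Sorbs2 without Asxl1Tg 2 (0.0502).

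Under the same limits, the largest falls were at low levels. Fscn1, the actin-bundling protein fascin, was at 0.814 to 1.74 CPM (median 1.24) in P95H libraries and 2.48 to 6.92 CPM (median 3.34) in the others, with no overlap (-1.50, SE 0.19, adjusted p = 0.000909). Scube3, a secreted signalling glycoprotein, was at 5.43 to 15.3 CPM (median 10.1), against 15.8 to 32.1 CPM (median 20.6), also with no overlap (-1.04, SE 0.22, adjusted p = 0.0116). Spint1, an inhibitor of serine proteases at the cell surface, fell by 1.53 on the log2 scale, as did Wdr86 (1.53). Ctnnd2, a delta-catenin, fell by 1.29, the axonemal chaperone gene Dnajb13 by 1.07, Pdzd4 by 1.04, Fam83h by 0.97 and the gastric mucin gene Muc6 by 0.97. These calls, and those of Fscn1 and Scube3, were kept in all 32 alternative runs. Msrb3, a methionine sulfoxide reductase (-1.23), Rasal1, a GTPase activator for Ras (-1.17), and Cd276, the checkpoint ligand B7-H3 (-1.07), lost theirs in 5, 13 and 11 of 32 runs, with adjusted p up to 0.0668, 0.0893 and 0.119.

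The mutated protein acts in splicing, so the genes of the splicing machinery come first among 41 gene lists. Few of them changed. Of 13 SR protein genes 1 was called (7.69%, against 9.86% of all genes), Srsf1, the family's founding member, at 0.37 (SE 0.10, adjusted p = 0.0282, with the antisense gene Gm11508 overlapping). The median of the list was 0.07, against -0.02 over all genes, and turned to -0.02 with library size only and -0.03 with cyclic loess scaling. Srsf1 lost its call in 9 of the 32 runs with another setting, where its adjusted p reached 0.114, among them those with library size only, GC trends removed and cyclic loess. Of 25 hnRNP genes, which encode RNA-binding regulators of splicing, 3 rose and none fell. This share is near the 9.86% of all genes called in either direction, while 6.01% of all genes were called higher. Library size only, GC trends removed and cyclic loess each gave 1 rise and 1 fall. Hnrnpa2b1, the strongest, was at 852 to 1196 CPM (median 1014) in P95H libraries and 676 to 874 CPM (median 777) in the others, overlapping through DM 3 and Asxl1Tg 1 (0.39, SE 0.07, adjusted p = 0.00449). Ptbp3 (0.30) and Hnrnpll (0.21), which both regulate splicing in blood cells, were the other 2, lost in 4 and 14 of 32 runs.

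Of 32 core spliceosome genes, 2 rose, both of small nuclear ribonucleoproteins. This share of 6.25% is near the 6.01% of all genes called higher. The median of the list was 0.25 in Srsf2P95H over WT and -0.06 in DM over Asxl1Tg. Snrpe, a subunit of the Sm ring, was at 74.3 to 102 CPM (median 84.8) with P95H and 53.2 to 72.8 CPM (median 66.8) without it, with no overlap (0.40, SE 0.08, adjusted p = 0.00660), and Snrpb2 of the U2 particle rose by 0.32. The genes of other splicing factors mutated in myeloid neoplasms were not called, with Sf3b1 at 0.12, U2af1 at 0.08 and Zrsr2 at -0.13. The list of splicing kinases and exon junction genes was the one in this class with falls, 3 of 17 and no rise. This is 17.6% of the list, against 3.84% of all genes called lower. All 3 encode kinases that phosphorylate SR proteins. Clk3 was at 38.0 to 52.8 CPM (median 45.6) in P95H libraries and 49.4 to 77.0 CPM (median 62.5) in the others, with an overlap of Srsf2P95H 2 with Asxl1Tg 3 and Asxl1Tg 4, and fell by 0.47 on the log2 scale (SE 0.08, adjusted p = 0.00381, Edc3 overlapping on the opposite strand). Clk1 fell by 0.59 and Srpk3 by 0.66, while Clk2 (-0.04), Clk4 (-0.12), Srpk1 (0.06) and Srpk2 (0.01) were not called. The 3 kinase calls held with each scaling, except that of Srpk3 with cyclic loess. The call of Clk1 was lost in 11 of 32 runs (adjusted p up to 0.0701), and that of Srpk3 without Srsf2P95H 3, DM 1 or Asxl1Tg 2 and with cyclic loess (up to 0.0545). No gene of 12 of nonsense-mediated decay was called, with 3 of 12 at an unadjusted p under 0.05 and a median of 0.06.

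Genes whose splicing is known to change with mutant SRSF2, in human or mouse cells, were listed for their abundance. Of 18, 5 rose and none fell, which is 27.8% of the list, against 6.01% of all genes called higher. They were Hnrnpa2b1, the Polycomb methyltransferase gene Ezh2 (0.26), the transcription factor gene Atf2 (0.22), Casp8 (0.14) of death receptor signalling and Ikbkg (0.17) of NF-kB signalling. Ezh2 was at 137 to 186 CPM (median 164) in P95H libraries and 126 to 142 CPM (median 140) in the others (SE 0.06, adjusted p = 0.0143), DM 3 being the 1 P95H library in the range of the others, with Gm26625 overlapping on the opposite strand. The count was 1 of 18 with library size only or cyclic loess scaling and 2 of 18 with the GC trend of each library removed. Poison-exon inclusion in Ezh2, which this mutation is known for, is a matter of exon reads and was not measured by these counts. Rnaseh2a, a subunit of the enzyme that removes RNA from DNA, was the 1 called of 12 R-loop and pausing genes (0.26).

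Among p53 target genes 5 of 20 (25%, against 6.01% of all genes) rose and none fell. The count was 5 with the RLE factors or the GC trend removed, and 4 with library size only or cyclic loess. Eda2r, a receptor of the tumour necrosis factor family that p53 induces, was at 2.17 to 4.20 CPM (median 2.73) with P95H and 0.708 to 1.63 CPM (median 0.829) without it. No library overlaps, and the log2 fold change of 1.58 (SE 0.18, adjusted p = 0.000396) was the same in both backgrounds, 1.57 and 1.59. Ccng1, which encodes cyclin G1, was at 91.0 to 117 CPM (median 101) in P95H libraries, against 71.1 to 83.5 CPM (median 75.5) and again without overlap (0.43, SE 0.06, adjusted p = 0.00128). Zmat3, an RNA-binding target of p53 with a part in tumour suppression, was at 14.0 to 27.1 CPM (median 18.3) with P95H and 10.9 to 16.9 CPM (median 12.9) without it (0.52, adjusted p = 0.0110). Phlda3, an inhibitor of Akt, rose by 0.73 and Ei24, a gene of the endoplasmic reticulum, by 0.19. The best-known targets of the list were not called, with Cdkn1a at 0.07, Mdm2 at -0.01, Bax at 0.19 and Bbc3 at 0.15, and the median of the list was 0.11. Calls of Eda2r, Ccng1 and Zmat3 were kept in all 32 alternative runs.

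The starts of these 5 genes were searched for the p53 half-site, a palindromic motif of 10 bases, in RefSeq windows of 250 bases before to 50 after the transcription start (GRCm38.p6). Windows were found for 4 of the 5. Of these 4 genes 2 had a half-site in a window, as had 8 of the 15 list genes with a window. Of all 32851 windows 8.36% held a half-site, but that share counts windows and not genes, so it cannot be set against them. A match describes these letters only, and none in the other windows says nothing of sites elsewhere in the gene. The 2 windows, both on the minus strand and written along it, are shown with the half-site in capitals, Ccng1 at chr11:40755237-40755536 and Ei24 at chr9:36797285-36797584.
Ccng1: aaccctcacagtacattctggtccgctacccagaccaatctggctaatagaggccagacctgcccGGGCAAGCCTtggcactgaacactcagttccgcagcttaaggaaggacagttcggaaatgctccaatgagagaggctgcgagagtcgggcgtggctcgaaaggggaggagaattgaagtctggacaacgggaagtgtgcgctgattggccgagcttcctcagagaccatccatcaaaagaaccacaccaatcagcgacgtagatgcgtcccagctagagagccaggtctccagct
Ei24: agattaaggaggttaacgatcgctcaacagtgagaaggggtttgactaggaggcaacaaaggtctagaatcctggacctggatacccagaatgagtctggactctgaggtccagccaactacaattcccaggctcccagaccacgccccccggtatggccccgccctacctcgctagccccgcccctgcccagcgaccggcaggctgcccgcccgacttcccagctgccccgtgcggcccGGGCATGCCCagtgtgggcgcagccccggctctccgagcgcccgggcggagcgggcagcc

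Genes of DNA repair followed with 4 of 24 higher (16.7%, against 6.01% of all genes) and none lower (median 0.11). Chek2, the checkpoint kinase, rose by 0.21, Brca1 of homologous recombination by 0.25, the damage-sensing kinase Atm by 0.22 and the mismatch repair gene Msh6 by 0.19. These 4 calls depended on the scaling: with library size only or cyclic loess none rose and 2 fell, and with the GC trend removed none of 24 was called. Trp53bp1, described above, fell under every setting. Of 19 apoptosis genes, 3 rose, Casp8, Bid (0.21) and Casp9 (0.18), each lost in 16 or more of 32 runs with adjusted p up to 0.623, 0.149 and 0.370.

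Rises among growth genes were small. Ribosomal protein genes had the largest number of calls of the 41 lists, 10 of 33 (30.3%, against 6.01% of all genes), with no fall, and a median of 0.17. Rpl22, at 383 to 448 CPM (median 421) in P95H libraries and 287 to 388 CPM (median 340) in the others, led them (0.31, SE 0.06, adjusted p = 0.00944), with an overlap of the lowest Srsf2P95H libraries and WT 3. Rpl7 rose by 0.24. The list had 2 calls with library size only, 12 with the GC trend removed and none with cyclic loess, where its median was 0.03. Of 29 genes of oxidative phosphorylation, 5 rose (17.2%, against 6.01% of all genes), with a median of 0.18. Among them were Ndufa4 (0.32), Cox6c (0.29) and Atp5c1 (0.24) of complexes IV and V. Mitochondrially encoded genes had a median of 0.19 with none of 12 called and 5 at an unadjusted p under 0.05. Reads of Rpl and Rps genes can be shared with their many processed pseudogenes.

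Of 24 mitotic genes 5 rose (20.8%, against 6.01% of all genes) and none fell (median 0.24). They were Top2a (0.30), the kinesin gene Kif11 (0.30), Birc5 or survivin (0.30), Tpx2 (0.28) and Prc1 (0.23). Top2a was at 875 to 1160 CPM (median 1023) in P95H libraries and 704 to 910 CPM (median 848) in the others, overlapping in 2 P95H libraries. With the GC trend removed or cyclic loess scaling none of the 24 was called, at medians of 0.19 and 0.15. Of 24 replication genes 3 rose (12.5%, against 6.01% of all genes). Pola1, the catalytic subunit of primase-polymerase alpha, was at 208 to 303 CPM (median 244) with P95H and 157 to 215 CPM (median 198) without it (0.40, SE 0.09, adjusted p = 0.0116), and was kept in all 32 runs, whereas the clamp loader Rfc4 (0.37) and Gins3 (0.30) were lost in 8 and 14. Npm1, the nucleolar chaperone, was the 1 called of 23 MYC and ribosome biogenesis genes (0.34). Among 20 unfolded protein response genes 5 rose (25%, against 6.01% of all genes). They were Sel1l (0.25), Edem1 (0.30), Dnajc3 (0.30), Canx (0.34) and Pdia3 (0.40), which all serve folding or degradation in the endoplasmic reticulum. The median of the list, 0.31, fell to 0.22 and 0.21 with library size only and cyclic loess, with none called under either. In Srsf2P95H over WT and in DM over Asxl1Tg it was 0.52 and 0.13. These 2 medians were 0.34 and 0.02 for replication genes, 0.35 and -0.13 for MYC and ribosome biogenesis genes and 0.28 and 0.08 for oxidative phosphorylation. They were closer for mitotic (0.25 and 0.21) and ribosomal protein genes (0.18 and 0.17). For mitochondrially encoded genes they were 0.06 and 0.33. These differences between backgrounds were not tested for lists.

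**Figure D3:**
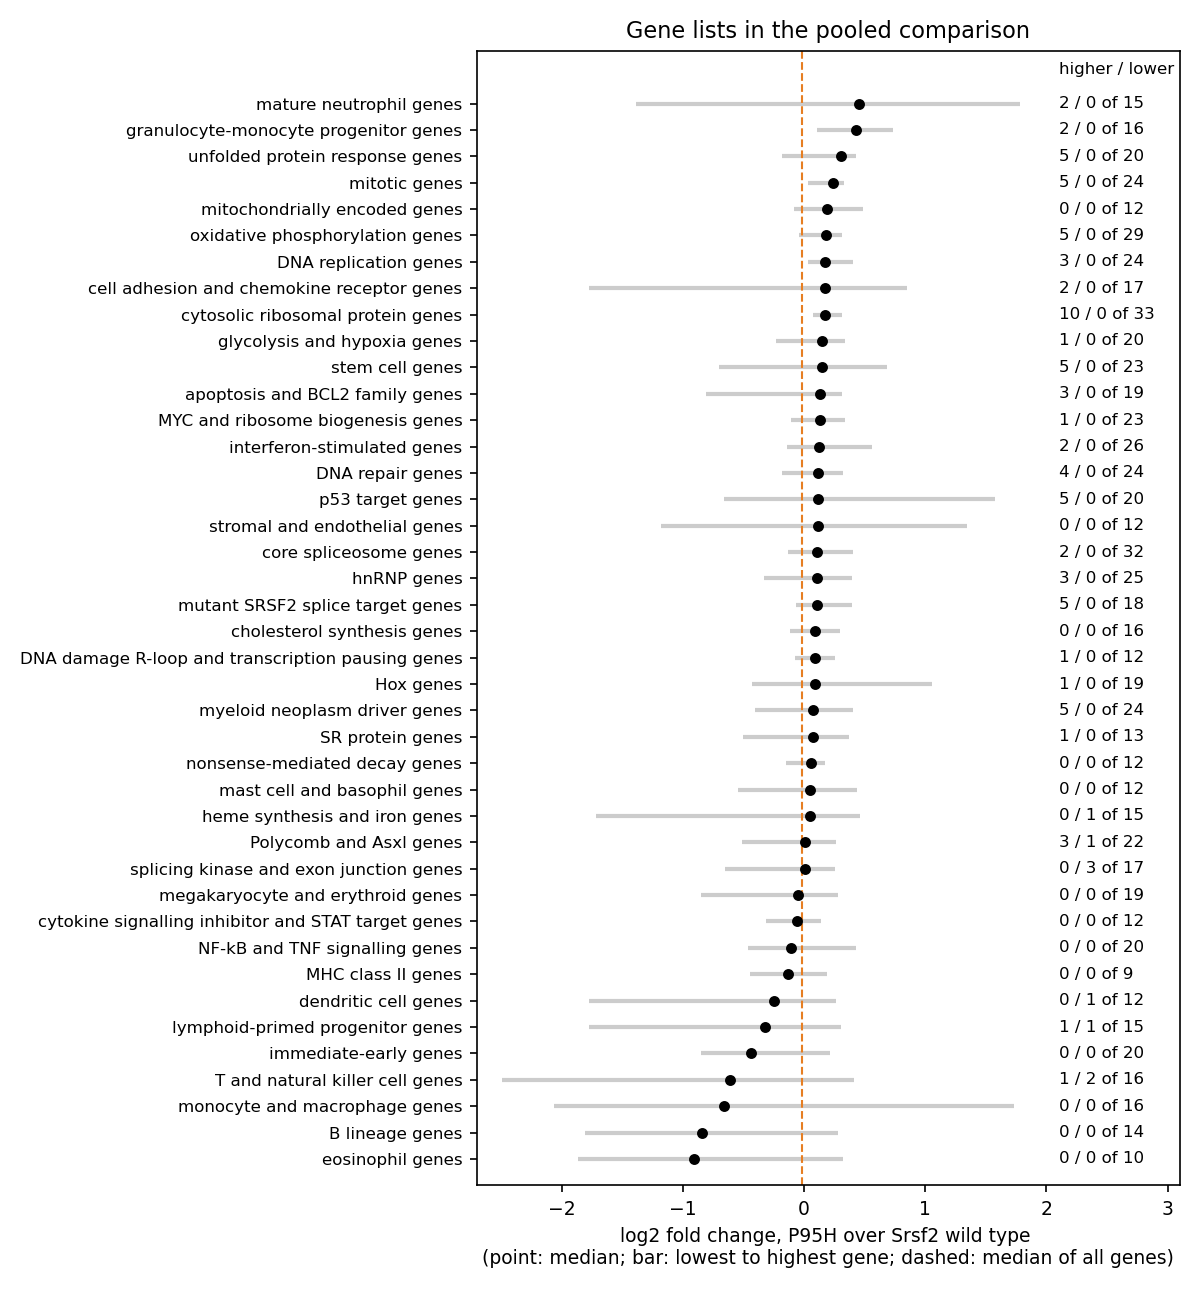
Gene lists in rows, with the median log2 fold change of P95H over unmutated Srsf2 as a point, the lowest to highest member as a bar, and the numbers called higher and lower of those tested at the right. The dashed line is the median of all genes, -0.02, and the medians run from -0.91 for eosinophil genes to 0.46 for mature neutrophil genes.

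These list counts have to be read against level and base composition, since both separate rises from falls. Of genes above 100 CPM, 17.4% rose and 1.18% fell, and of those at 10 to 100 CPM 10.9% rose and 2.52% fell. Under 1 CPM 0.761% rose and 3.65% fell. In protein-coding genes the median GC content of the longest transcript was 44.3% for rises, 54.2% for falls and 50.3% for genes not called. The difference persisted within 10 to 100 CPM, at 44.4%, 53.3% and 49.9%. The motif CCNG, which mutant SRSF2 is known to prefer, and the motif GGNG, which it binds less, were counted on the transcript strand of the longest transcript, and a match of one can overlap a match of the other. There were 14.6 CCNG and 14.0 GGNG per kb in rises, 25.3 and 21.4 in falls, and 20.6 and 18.3 in genes not called, so that both fell with the GC content, and the share of CCNG among the 2 was 0.516, 0.535 and 0.527.

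The libraries themselves differed in the same measure. The difference in log2 level between the GC-rich upper quartile of protein-coding genes of at least 10 CPM (54.0% GC or more) and the lower quartile (44.6% or less), taken as the deviation from the mean of all libraries, was -0.08 ± 0.11 in P95H libraries and 0.07 ± 0.11 in the others (SD, n = 8 each; exact permutation test, two-sided p = 0.0110). The 4 Asxl1Tg libraries were the highest of all 16, and those of WT overlapped with those of the P95H groups. Across genes, the correlation of the fold change with GC content was accordingly -0.46 for DM over Asxl1Tg and -0.10 for Srsf2P95H over WT, a description over 9132 genes that share the same libraries. When the trend of each library on GC content was removed, 1426 genes were called, 592 higher and 834 lower, of which 1234 were among the 2242. Whether library preparation or the genotype moved with GC content was not tested.

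**Figure D4:**
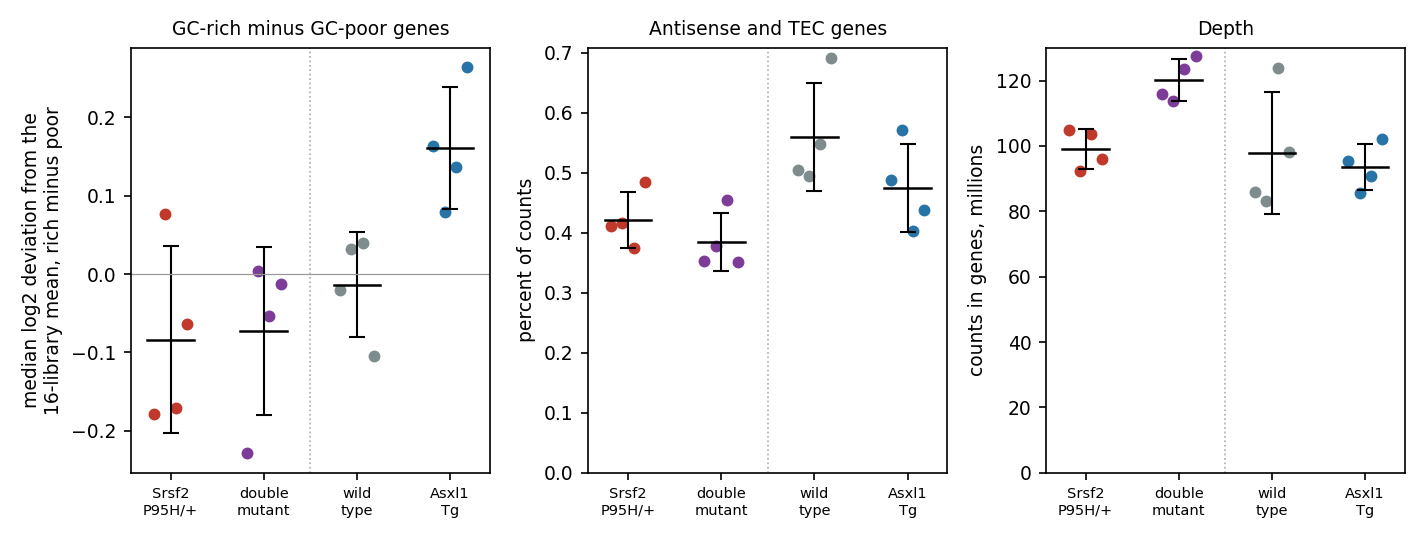
Library measures by group, with 1 point per library and the mean with its SD (n = 4). The panels give the median log2 deviation of GC-rich minus GC-poor genes, the percent of counts in antisense and TEC genes, and the depth in M counts. Srsf2P95H and DM, left of the dotted line, have less antisense and TEC signal than WT and Asxl1Tg with some overlap, the GC measure is highest in Asxl1Tg, and the 4 DM libraries hold 113.8 M counts or more.

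Falls were more frequent in antisense and TEC genes than over all genes (3.84%), but not in every non-coding class. Antisense genes had 86 falls (6.38%) and 9 rises among 1348 tested, and TEC genes, a GENCODE class of loci known from expressed sequence tags, 115 falls (8.05%) and 4 rises among 1428. Of long intergenic RNAs 3.35% fell, of processed pseudogenes 2.88% and of all non-coding genes 4.56%. Antisense and TEC genes together took a share of all counts of 0.352 to 0.485% (median 0.394%) in P95H libraries and 0.403 to 0.690% (median 0.4996%) in the others, and the mean was lower with the mutation (0.403 ± 0.0479% and 0.517 ± 0.0885%, SD, n = 8 each; exact permutation test, two-sided p = 0.00245). All non-coding genes together took 5.59 ± 0.537% and 6.36 ± 0.667% of counts (exact p = 0.0237). The setting for strand in the counting is not given, so antisense counts can hold reads of the gene on the other strand. With protein-coding genes alone in the fit, 1430 were called, and 45.2% of them rose.

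Stem-cell genes rose in 5 of 23 cases (21.7%, against 6.01% of all genes) and fell in none. Their median was 0.15, with 0.02 in Srsf2P95H over WT and 0.16 in DM over Asxl1Tg. The count was 1 with library size only (median 0.06), 2 with GC trends removed and 3 with cyclic loess, and 3 rises with 1 fall without both WT 4 and Srsf2P95H 2. Esam, an adhesion molecule of stem cells, was at 29.5 to 51.3 CPM (median 36.8) in P95H libraries and 18.7 to 35.0 CPM (median 30.02) in the others (0.43, SE 0.11, adjusted p = 0.0215), with overlap. Hoxb5, which marks long-term stem cells in mice, rose by 0.69, the angiopoietin receptor gene Tek by 0.53, Slamf1 by 0.55 and the growth suppressor gene Ndn by 0.55. Of these, Esam was lost with library size only and cyclic loess (adjusted p up to 0.0652), Hoxb5 without the Asxl1 term (0.0887), and Tek in 15 of 32 runs. Slamf1 and Ndn were not followed run by run, but lost their calls with library size only and with GC trends removed. Mecom (0.24), Hlf (0.12) and Procr (0.37) were not called. Of 16 granulocyte-monocyte progenitor genes 2 rose, Gfi1, a repressor that directs granulocyte development (0.45, SE 0.10, adjusted p = 0.0141), and Nkg7 (0.41), which was lost in 15 of 32 runs (adjusted p up to 0.0865). That is 12.5% of the list, near the 9.86% of all genes called in either direction, while 6.01% of all genes were called higher. The list median of 0.43 kept its sign under the 5 alternatives run for lists. Gfi1 was at 36.2 to 56.4 CPM (median 51.5) in P95H libraries and 29.98 to 46.7 CPM (median 35.2) in the others, DM 1 and DM 3 lying in that range. The granule genes Mpo (0.71, adjusted p = 0.0972) and Elane (0.74, adjusted p = 0.209) had larger values with larger errors. No megakaryocyte or erythroid gene of 19 was called, and none had an unadjusted p under 0.05.

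On the lymphoid side, 1 of 15 lymphoid-primed progenitor genes rose and 1 fell. Tcf7, a transcription factor of early T cells, was at 1.84 to 4.49 CPM (median 3.38) with P95H and 3.43 to 9.21 CPM (median 4.88) without it (-0.77, adjusted p = 0.0308), lost in 9 of 32 runs. Lef1 (-1.26, adjusted p = 0.0631), Ccr9 (-1.77, 0.0932), Flt3 (-0.41, 0.148) and Il7r (-0.58, 0.258) were lower in value but not called, and the median of the list was -0.32. That median was -0.73 in Srsf2P95H over WT and -0.01 in DM over Asxl1Tg. Ccr9 was at -3.48 and -0.03 in these contrasts, Il7r at -1.09 and -0.07, and Flt3 at -0.73 and -0.08, whereas Tcf7 was at -0.77 and -0.78. None of these differences between the contrasts passed adjustment. Cd4 was at 1.80 to 3.35 CPM (median 2.20) in P95H libraries and 1.93 to 6.07 CPM (median 4.41) in the others, WT 1 and Asxl1Tg 3 lying in the range of the P95H libraries (-0.94, SE 0.21, adjusted p = 0.0148).

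Markers of mature cells that the beads should remove gave few calls. Of 15 neutrophil genes, Lyz2 (0.28) and the collagenase gene Mmp8 (1.78) rose, the second at 0.949 ± 0.495 CPM in P95H libraries and 0.275 ± 0.224 CPM in the others (SD, n = 8 each). Lyz2 was lost in 5 of 32 runs and Mmp8 in 4 of 31. The summed level of neutrophil genes was 208 to 335 CPM and 147 to 333 CPM (exact p = 0.128). Itgax of dendritic cells (-0.58) and Ncr1 of natural killer cells (-2.50) fell, lost in 19 of 32 and 14 of 31 runs. Ncr1 was at 0.303 CPM or less in all P95H libraries and at 1.78 CPM in WT 4, with overlap. B lineage genes (median -0.84, 0 of 14), eosinophil genes (-0.91, 0 of 10) and monocyte and macrophage genes (-0.66, 0 of 16 called and 10 of 16 at an unadjusted p under 0.05) had no call. Without both WT 4 and Srsf2P95H 2 these medians were -0.26, -0.20 and -0.35, and with cyclic loess -0.33, -0.29 and -0.38. With the level of the first 2 lists as a covariate 1779 genes were called.

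Of 22 Polycomb and Asxl genes 3 rose and 1 fell (median 0.01). The rises were Ezh2, Suz12 (0.26) and the histone chaperone gene Rbbp4 (0.20), and the fall was Cbx7, a chromobox protein. Cbx7 was at 12.1 to 18.4 CPM (median 14.8) in P95H libraries and 16.4 to 28.2 CPM (median 21.9) in the others (-0.51, SE 0.11, adjusted p = 0.0106, Apobec3 overlapping on the opposite strand), and was kept in all 32 runs, while Suz12 was lost in 15. With library size only no gene of the list rose and 4 fell, and with cyclic loess none rose and 3 fell. Of 24 driver genes of myeloid neoplasms 5 rose, the dehydrogenase gene Idh1 (0.41), Phf6 (0.33), the cohesin genes Stag2 (0.27) and Smc3 (0.19), and Npm1. This is 20.8% of the list, against 6.01% of all genes called higher and 9.86% called in either direction. The count, however, was 2 with library size only or cyclic loess and 1 with GC trends removed. Stag2 and Npm1 were lost in 7 and 8 of 32 runs. Of 26 interferon-stimulated genes 2 rose, near the background share. Ifi44 was at 11.7 to 30.4 CPM (median 19.1) with P95H and 6.19 to 21.5 CPM (median 12.4) without it (0.56, SE 0.12, adjusted p = 0.0118). DM and Asxl1Tg libraries do not overlap, and Srsf2P95H 1 alone lies below the highest WT library. Srsf2P95H averaged 24.8 CPM against 18.5 CPM in WT, and DM 13.7 CPM against 8.39 CPM in Asxl1Tg, and the call was lost without the Asxl1 term (adjusted p = 0.240). Oas1a, a synthetase of the antiviral response, rose by 0.36.

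The remaining lists held few or no calls. Of 20 glycolysis and hypoxia genes the oxygen sensor gene Egln3 rose (0.33), and of 19 Hox genes Hoxb5 rose. Of 17 adhesion genes 2 rose, among them Itga6 (0.28), lost in 14 of 32 runs. Their share of 11.8% is near the 9.86% of all genes called in either direction, with 6.01% called higher. None of the 17 was called with library size only, GC trends removed or cyclic loess. Of 15 heme genes Alas2 of erythroid heme synthesis fell (-0.68, lost in 19 of 32 runs). In 13 lists none of the 184 members tested was called by edgeR, with 24 at an unadjusted p under 0.05 and a smallest adjusted p of 0.0723. Immediate-early genes were among these, with a median of -0.44 and no call of 20. Their mean log2 CPM was lowest in WT 4 (4.09) and highest in Srsf2P95H 2 (8.37). Without both of these libraries 12 of the 20 were called lower and none higher, with a median of -1.17. Leaving out the lowest unmutated library and the highest P95H library lowers this contrast by construction, so no conclusion is drawn from that run. In the full pooled edgeR test none of the 20 had an unadjusted p under 0.05. With all 16 libraries the median was -0.06 in Srsf2P95H over WT and -0.99 in DM over Asxl1Tg. Within 5 Mb of Srsf2 16 of 213 genes were called (7.51%), 4 higher and 12 lower, and within 20 Mb 47 of 514 (9.14%), 15 higher and 32 lower. Falls thus outnumbered rises near the mutated gene, while rises outnumbered falls over all genes, and this difference was not tested. Falls also outnumbered rises on chromosomes 7 (64 higher, 96 lower), 17 (37 and 49) and 5 (78 and 79), though by a smaller proportion than near Srsf2. By chromosome the share ran from 7.56% on chromosome 15 to 12.8% on chromosome 3. On chromosome X it was 12.7%, with 73 genes higher and 14 lower of 687.

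Each Asxl1 background gave its own estimate, from libraries that the other does not share. Srsf2P95H over WT called 115 genes (0.506%), 60 higher and 55 lower, and DM over Asxl1Tg 245 (1.08%), 193 higher and 52 lower. The median SE was 0.168 in the pooled comparison and 0.235 in each of the single ones, and the pooled median was 0.0724 for the 9452 genes of at least 10 CPM. The counts of 115 and 245 come from a fit of all 16 libraries, with the spread estimated from all of them. Fits on the 8 libraries of each background alone called 2 and 17, and the cause of this difference was not tested. All 2242 pooled calls had the same sign in both, which the averaging favours. Across genes the correlation of the 2 sets of fold changes was 0.210 over all genes tested and 0.207 over those of at least 10 CPM, a description over genes, which are not independent.

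Called in both were 26 genes, which is 22.6% of the 115 and 10.6% of the 245, and 25 of them changed in the same direction and were called in the pooled test. They hold genes described above and 13 that were chosen after their values were seen and not run under the alternatives. Higher were Akr1b10, an aldo-keto reductase (0.37 in Srsf2P95H over WT and 0.47 in DM over Asxl1Tg), Apmap (0.56 and 0.40), the endothelial and leukocyte adhesion gene Icam2 (0.48 and 0.34) and Ric3, a chaperone of acetylcholine receptors (0.85 and 0.87). Ndufaf5, an assembly factor of complex I, was at 12.4 ± 0.944 CPM in Srsf2P95H and 7.98 ± 0.531 CPM in WT, and at 12.8 ± 1.06 CPM in DM and 9.27 ± 1.02 CPM in Asxl1Tg (SD, n = 4 each). The lysosomal peptidase gene Dpp7 (0.79 and 0.71) and Naxd, which repairs damaged NADPH (0.33 and 0.29), were higher too. Lower were the lipid kinase gene Pip5k1c (-0.43 and -0.37), the phosphorylase kinase subunit gene Phka1 (-0.60 and -0.60), the zinc-finger gene Zfp523 (-0.47 and -0.39), Mllt6, whose human counterpart is a fusion partner in leukaemia (-0.42 and -0.41), and the protease gene Prss53 (-1.26 and -1.06). The 13 also hold Gm50194, a locus with no biotype here, which averaged 0.0155 CPM in Srsf2P95H and 0.218 CPM in WT, and 0.00404 CPM in DM and 0.184 CPM in Asxl1Tg.

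**Figure D5:**
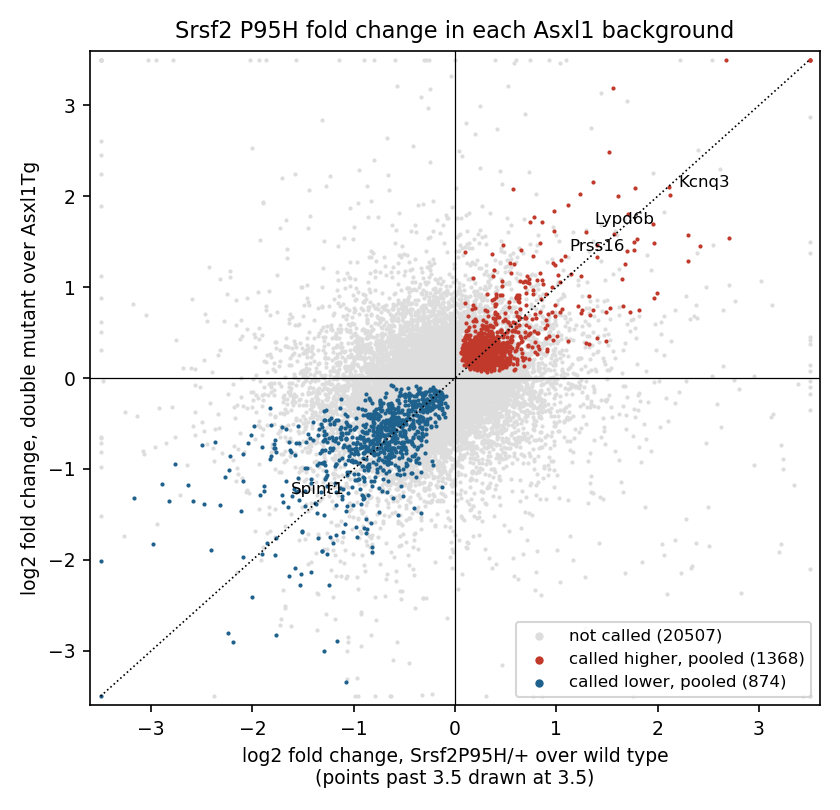
Log2 fold change of Srsf2P95H over WT (x axis) and of DM over Asxl1Tg (y axis) for each gene tested, with genes called in the pooled test in red (1368 higher) and blue (874 lower), and equality as a dotted line. Called genes lie in the 2 quadrants of equal sign, while the mass of genes not called spreads over all 4.

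No gene passed the test of a difference between the backgrounds (edgeR interaction term, 0 of 22749), although 2670 (11.7%) had an unadjusted p under 0.05 and the smallest adjusted p was 0.0851. That smallest value belonged to Serpina3g, a serine protease inhibitor of haematopoietic cells, also chosen after its values were seen. It was at 66.4 ± 7.80 CPM in Srsf2P95H and 46.8 ± 4.57 CPM in WT, but at 55.3 ± 5.49 CPM in DM and 74.9 ± 7.86 CPM in Asxl1Tg (SD, n = 4 each). It was called in both backgrounds with opposite signs, 0.51 and -0.44, and its pooled value of 0.03 was not called. Of the pooled calls, 123 (5.49%) had an unadjusted interaction p under 0.05. Cd276 was one, at -1.83 in Srsf2P95H over WT and -0.32 in DM over Asxl1Tg, and Scube3 another, at -1.55 and -0.53. For Dnajb13 (-1.07 and -1.07), Trp53bp1 (-0.52 and -0.52) and Clec4e (0.63 and 0.65) the 2 estimates were nearly equal.

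The number of calls changed with single libraries. Leaving out 1 library at a time gave 865 to 3007 calls, and moved the count by over 1.5 times for 7 of the 16: 1026 without Srsf2P95H 1, 1093 without Srsf2P95H 3, 865 without DM 1, 1145 without DM 2, 1230 without DM 4, 1356 without WT 3 and 1011 without Asxl1Tg 2. Of 91 genes chosen by rule and called, 37 were kept in every alternative and 54 lost in 1 or more. Those lost without 1 library numbered 34 for DM 1 (adjusted p 0.0508 to 0.117), 33 for Srsf2P95H 1 (0.0529 to 0.109), 32 for Asxl1Tg 2 (0.0502 to 0.118), 31 for Srsf2P95H 3 (0.0509 to 0.0971), 25 for DM 2 (0.0509 to 0.107), 22 for WT 3 (0.0507 to 0.0760) and 20 for DM 4 (0.0510 to 0.0915). For the other 9 libraries the number lost was 13 or fewer. None of the pooled calls changed sign in the alternatives that tested it.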

How the data were processed

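RNA from LSK cells of 16 mice was sequenced as paired-end reads of 100 bases, per the labels' protocols. The table of raw counts per gene deposited by the authors covers 55291 genes. Tools listed in the submitters' processing notes are HTSeq 0.11.2, STAR 2.7.0e, Trimmomatic 0.38 and FastQC, with mm10 as build. Neither the strand setting nor the annotation release is stated there. The 4 columns named AS1 were taken as Asxl1Tg by elimination, since the other columns carry the remaining genotypes.

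Genes were kept with edgeR's filterByExpr (minimum count 10), scaled with TMM and fitted with edgeR 4.0.16 in R 4.3.3 (robust quasi-likelihood, terms for Srsf2 and Asxl1 status), with Benjamini-Hochberg adjustment over 22749 genes and a threshold of 0.05. A fit with 1 mean per genotype gave the background contrasts and the interaction. DESeq2 1.42.0 and limma 3.58.1 served as alternatives. Tested on simulated counts for the pooled comparison of 22749 genes, recovery among 50 genes at each fold was 12 at 1.25, 35 at 1.5, 43 at 2 and 49 at 4, and 7 of 146 calls were false. The simulated counts were independent between genes, with rises and falls in equal number and no library-wide shift in GC content or cell content. The real libraries differ in these respects, so the share of false calls does not carry over to the real calls. Library measures were compared with a two-sided exact permutation test within backgrounds (4900 arrangements). CPM are on the TMM scale. The p-values measure the spread between these mice.

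The comparison and the gene lists were chosen with earlier results of these data known. Of 766 list entries 765 were matched by symbol. Genes were named by rule, 119 in all: Srsf2 and Asxl1, the 12 largest called rises and 12 largest falls and the 10 smallest p-values among annotated genes of at least 2 CPM with 1 sign in both backgrounds, and up to 3 called members of each list by p (2 as values only where none was called). Alternatives with protein-coding genes only, with GC trends removed and with cyclic loess were chosen after seeing the data. Coordinates and biotypes are of GENCODE M21 (GRCm38), promoters of RefSeq (GRCm38.p6). Numbers shared by replicates of different genotypes did not pair the libraries. Some genes chosen by these rules are not reported here, though counts over lists and over all genes include them.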

Additional observations from a re-analysis of the deposited data

Results flagged for a closer look

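In 31 cases 1 library lay far from the others of its 8, the gap to the nearest exceeding the Dixon limit, which chance passes in about 1 of 20 groups. Among P95H libraries, Srsf2P95H 2 was high for Fosb (1732 CPM, next 802), H2-Ob (52.97), Dnajb13 (9.003), Relb (8.65), Srpk3 (5.65) and Muc6 (4.73). Srsf2P95H 3 was high for C1qb (5.73 CPM) and Ccr3 (4.44 CPM). Srsf2P95H 4 had the highest sum of stromal and endothelial genes (386 CPM, next 262) and the lowest share of non-coding counts (4.40%, next 5.37%). DM 1 was high for B lineage genes (949 CPM, next 362), mt-Cytb (2140 CPM) and the mitochondrial share (1.07% of counts, next 0.893%). DM 2 was high for Eda2r (4.20 CPM, next 2.88) and Wdr86 (2.40 CPM), and DM 3 was high for Sorbs2 (8.80 CPM) and low for Bid (50.5 CPM).

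Among libraries with unmutated Srsf2, WT 4 stood apart most often. It was high for the sum of eosinophil genes (1669 CPM, next 323), Cish (17.8 CPM), Alas2 (5.46 CPM) and Ncr1 (1.78 CPM). It was low for Atp5c1 (157 CPM), Snrpb2 (36.7 CPM) and Rfc4 (24.6 CPM). WT 1 was high for Tjp1 (58.9 CPM, next 22.7). WT 3 was high for Trp53bp1 (181 CPM, next 154), Relb (15.2 CPM) and total counts (124 M, next 102 M). Asxl1Tg 3 was high for Zfpm1 (236 CPM) and Eda2r (1.63 CPM, next 1.02), and Asxl1Tg 4 for Socs1 (7.55 CPM).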

How the results depend on the processing

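Of the 3802 values of named genes under 32 alternatives, 3330 kept direction and side of the threshold, 445 lost and 27 gained a call, and 0 reversed. The pooled total of 2242 (1368 higher, 874 lower) moved by over 1.5 times in total or in a direction as follows. Library size only gave 407 higher and 1435 lower. DESeq2 called 3561 with 1688 lower, and limma-voom with quality weights 3458 with 1488 lower. Without a filter 1239 were called (758 and 481), and with a stricter one 816 rose. Protein-coding genes alone gave 1430 (646 higher), removal of GC trends 1426 (592 higher) and cyclic loess 1249 (621 higher). A log2 change of at least 1 was met by 221 (58 and 163). Leaving out 1 library gave totals of 865 to 3007, with 516 to 1802 higher and 347 to 1205 lower. Fits on the libraries of 1 background called 2 (Srsf2P95H over WT) and 17 (DM over Asxl1Tg). The cause of these shifts was not tested. With Xist above 100 CPM or not as a covariate 1852 genes were called, 1789 of them shared with the main fit. With the replicate number as a block 2059 genes were called, 1892 of them shared. Pairing was not seen: r lay between -0.293 and 0.295 over the 24 pairs with equal numbers, and only 3 of 16 libraries were most like a library of equal number. Precision was lower for weakly expressed genes, with a median SE of 0.168 over all genes and 0.0724 at 10 CPM or more.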

Other observations

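Named long non-coding RNAs also changed, all chosen here after their values were seen. Nron, a repressor of NFAT transport, fell by 0.81 on the log2 scale (SE 0.17, edgeR adjusted p = 0.0113), Zmiz1os1 by 0.62 (SE 0.14, adjusted p = 0.0138), Pitpnm2os2 by 0.94 (SE 0.24, adjusted p = 0.0246) and Kcnq1ot1, the imprinted transcript of the Kcnq1 domain, by 0.38 (SE 0.10, adjusted p = 0.0249). Tnfsf13os rose by 0.98 (SE 0.15, adjusted p = 0.00224), with no overlap of the 8 and 8 libraries. The abundant nuclear RNAs Malat1 (-0.30, adjusted p = 0.0873) and Neat1 (-0.46, adjusted p = 0.0846) were not called. These genes were not run under the alternatives, and for those on the opposite strand of another gene the counts cannot be told apart.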
